A study of Mus musculus with 16 samples.

Results

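The report covers 10 genes of the zona glomerulosa and of aldosterone control, chosen by name: Cyp11b2, Hsd3b6, Agtr1a, Agtr1b, Kcnk3, Kcnk9, Kcnj5, Cacna1h, Vsnl1 and Dab2. Each was found in the deposited count file by the Ensembl identifier that the GENCODE mouse M21 annotation gives to its symbol, and they are 10 of the 54838 genes in that file. Bulk RNA sequencing was done on adrenal glands of 16 individual mice of mixed genetic background, at the age of 4 weeks. The genotypes were control and Rspo1 gain-of-function (GOF). With 4 animals of either sex for either genotype, there were 4 groups. The study compared the sexes in control and in GOF adrenals. The promoter or driver of the GOF allele, and what alleles the controls carried, are not given in the sources used here.

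The zona glomerulosa is the outermost layer of the adrenal cortex, under the capsule, and makes the mineralocorticoid aldosterone, which acts on the kidney to retain sodium. Angiotensin II, through its type 1 receptors, and a rise in plasma potassium both depolarise the cell and let calcium in, and calcium signalling then raises transcription of aldosterone synthase. R-spondin 1, the product of Rspo1, is secreted and enhances signalling by WNT ligands, a pathway that is active in this zone.

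Library totals ran from 31275146 to 43003968 counts, and all 10 genes were among the 18214 that passed the filter on low counts. The targeted gene, Rspo1, averaged 14.8 ± 17.4 CPM (counts per 1e6 counts) in control females and 458 ± 80.2 in GOF females, 30.5 ± 12.6 in control males and 805 ± 201 in GOF males (SD over 4 libraries). Female control 1 was at 40.6 CPM of Rspo1 and the other 3 female controls at 3.20 to 9.73. Some control libraries held transcripts of neighbouring organs. The summed level of 12 kidney tubule genes was 1361 CPM in female control 1 and 227 in female control 3, against 3.89 or less in the other 14 libraries. The summed level of 12 liver genes was 9979 CPM in male control 2, 776 in male control 1 and 576 in male control 3, against 183 or less elsewhere. Among these genes, Alb averaged 1471 ± 2927 CPM in male controls, a spread that a single high library gives. Cyp2e1 averaged 558 ± 271 CPM in male controls and 120 ± 29.3 in female controls. The sums of male controls 1 and 3 thus rest mostly on Cyp2e1 rather than on the whole list. The fits without the kidney and liver libraries named below leave out female controls 1 and 3 and male control 2 and keep male controls 1 and 3. They were run for the 10 members, for the counts of the related lists and for most genes named from those lists, and not for Rspo1, Cyp11b1, Agtr2 in females, Nr5a1 in males, Wnt4 within each sex or the marker lists.

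The 10 genes lie on 7 chromosomes (GRCm38, GENCODE M21), and all are protein-coding. On chromosome 15 are Cyp11b2 (ENSMUSG00000022589, 74851010 to 74856318), Kcnk9 (ENSMUSG00000036760, 72501089 to 72546340) and Dab2 (ENSMUSG00000022150, 6299788 to 6440712). On chromosome 3 are Hsd3b6 (ENSMUSG00000027869, 98805504 to 98814443) and Agtr1b (ENSMUSG00000054988, 20314473 to 20367177). Agtr1a is on chromosome 13 (ENSMUSG00000049115, 30336441 to 30382867), Vsnl1 on chromosome 12 (ENSMUSG00000054459, 11325242 to 11436613) and Kcnk3 on chromosome 5 (ENSMUSG00000049265, 30588170 to 30625271). Kcnj5 is on chromosome 9 (ENSMUSG00000032034, 32314707 to 32344350) and Cacna1h on chromosome 17 (ENSMUSG00000024112, 25374285 to 25433783).

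In GOF adrenals of both sexes, Cyp11b2, Agtr1b, Vsnl1 and Kcnk9 fell by about 2 or more on the log2 scale, while Agtr1a and Cacna1h, a receptor and a calcium channel of the same pathway, were within 0.14 of control. Hsd3b6 and Dab2 fell in males. In females Hsd3b6 was at a log2 fold change of -1.45 without passing the test, and its interaction of sex and GOF had an adjusted p of 0.709. No member was called higher in GOF in either sex. Tested with edgeR's quasi-likelihood method, with Benjamini-Hochberg adjustment across every tested gene, 4 of 10 members were below an adjusted p of 0.05 for females and 6 of 10 for males, all lower. Of all 18214 genes, 39.6% passed in females, 20.6% as lower, and 36.9% passed in males, 21.8% as lower. The members' median log2 fold change was -0.99 in females and -1.58 in males, against 0.05 and 0.01 over all tested genes. The counts were 4 and 6 also without the libraries holding kidney or liver transcripts, where 24.1% and 25.7% of all tested genes were called. Values of the 2 groups did not overlap for 5 members in females, against 37.8% of all tested genes, and for 6 members in males, against 33.1%. In bulk tissue, fewer cells of a type and less RNA per cell cannot be told apart.

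**Figure D1:**
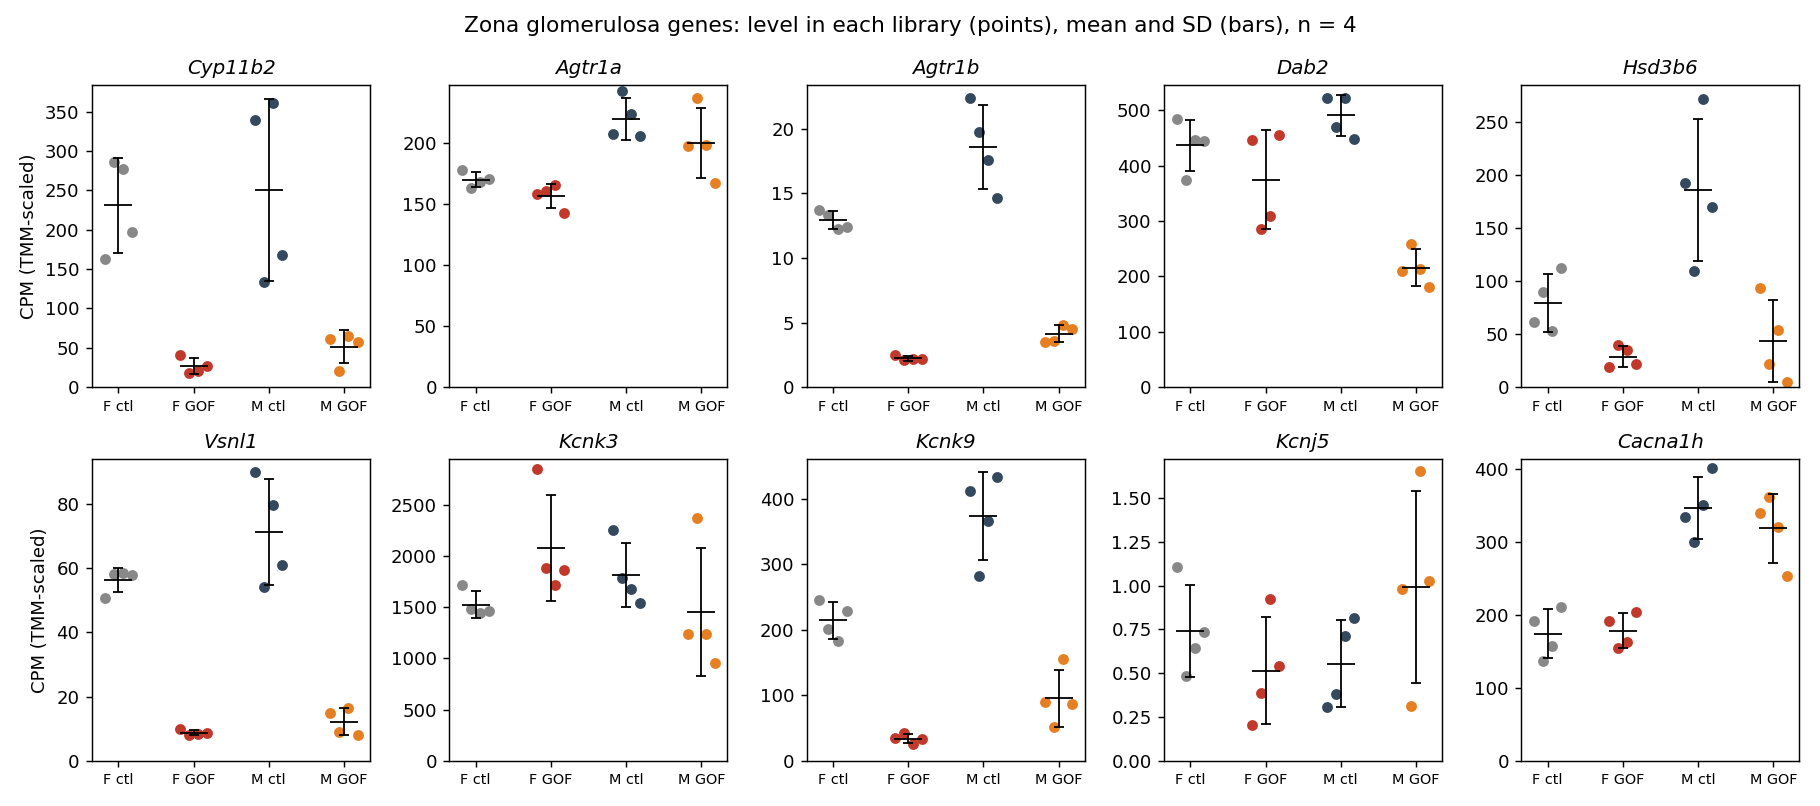
Level of each of the 10 genes in CPM (vertical axes, each from 0), 1 point per library with the mean and SD of each group of 4, in female control (F ctl), female GOF (F GOF), male control (M ctl) and male GOF (M GOF) adrenals. For Cyp11b2, Agtr1b, Vsnl1 and Kcnk9 every GOF library lies below every control library of its sex, while the groups overlap for Agtr1a and Cacna1h.

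The first role is that of the steroid enzymes. Cyp11b2 encodes aldosterone synthase, the enzyme of the last steps of aldosterone synthesis. Its near relative Cyp11b1 encodes the 11-beta-hydroxylase that makes corticosterone in the inner cortex. The coding sequences of both were 87.1% identical over 1506 aligned bases, with a longest identical run of 244 bases and 95 positions at which 150 bases in a row, the length of 1 read, were identical. Reads from those stretches could belong to either gene, and how they were counted is not given in the sources used here, so part of the Cyp11b2 counts is uncertain. The stretch of 60 coding bases in which the genes differ the most, starting at base 523 of each coding sequence in the GENCODE M21 transcripts, is shown because it is where a read tells them apart. It differs at 24 bases, which are in capitals.
Cyp11b2: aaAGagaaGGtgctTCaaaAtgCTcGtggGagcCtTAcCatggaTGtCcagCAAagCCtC
Cyp11b1: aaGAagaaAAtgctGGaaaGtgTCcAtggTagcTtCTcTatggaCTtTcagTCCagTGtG

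Cyp11b2 was at 163, 287, 277 and 197 CPM in the 4 female controls, and at 40.9, 18.1, 20.7 and 26.3 CPM in the 4 female GOF libraries. In males it was at 339, 134, 361 and 168 CPM in controls, and at 61.7, 20.1, 65.5 and 57.4 CPM in GOF. The lowest control of either sex was above the highest GOF library, and male controls spread over a wider range than female controls. By edgeR's quasi-likelihood test, the log2 fold change in females was -3.12 ± 0.424 (SE; adjusted p 6.75e-05), and that in males -2.29 ± 0.409 (adjusted p 0.000565). The difference between the sexes in this effect, 0.83 ± 0.555, had an adjusted p of 0.420 in the interaction term. Cyp11b2 was called lower in each of the 28 alternative analyses in either sex.

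Cyp11b1 was at 4592 ± 741 CPM in female controls and 5922 ± 473 in female GOF, and at 4102 ± 1786 in male controls and 5419 ± 769 in male GOF (SD, n = 4). It was not called, with log2 fold changes of 0.37 in females and 0.40 in males and adjusted p of 0.201 and 0.166 from edgeR's quasi-likelihood test. Per length, in FPKM (fragments scaled to gene length and library total, as deposited), Cyp11b1 exceeded Cyp11b2 by a ratio of 10.5 ± 1.79 in female controls and 125 ± 39.2 in female GOF. The ratio was 9.32 ± 3.58 in male controls and 72.7 ± 59.7 in male GOF, where male GOF 2 gave 162 and the lowest library 36.8. Each GOF library had a higher ratio than any control library.

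Hsd3b6 encodes a 3-beta-hydroxysteroid dehydrogenase isoform found in the mouse glomerulosa, and Hsd3b1 its abundant relative of the cortex. Hsd3b6 was at 61.4, 89.5, 52.9 and 113 CPM in female controls and 19.1, 39.6, 35.2 and 21.5 in female GOF. It was at 193, 110, 272 and 170 CPM in male controls and at 93.4, 22.2, 54.2 and 5.10 in male GOF. The groups did not overlap in either sex, and the male GOF libraries spread more, relative to their mean, than for any other called member. The log2 fold change was -2.09 ± 0.609 in males at an adjusted p of 0.0155 from edgeR's quasi-likelihood test, and -1.45 ± 0.601 in females at an adjusted p of 0.0686. The male value was -2.80 without male GOF 1 and -3.55 with sample quality weights, and its adjusted p was 0.0512 without the filter and 0.0647 with the male groups fitted alone. The female difference was called when the female groups were fitted alone, with an adjusted p of 0.00676, and also without male GOF 1, at 0.0407, and without male GOF 4, at 0.0139. All groups share 1 estimate of the spread in the model, and the part of that in these calls was not tested.

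Hsd3b1 went the other way. It was at 9482 ± 354 CPM in female controls and 17609 ± 2440 in female GOF, and at 7188 ± 2390 in male controls and 10998 ± 2645 in male GOF (SD, n = 4). It rose by 0.89 ± 0.208 on the log2 scale in females at an adjusted p of 0.00348, and by 0.61 ± 0.207 in males at an adjusted p of 0.0301, from edgeR's quasi-likelihood test. The male call was lost in 6 of 28 alternatives: the adjusted p was 0.129 without male GOF 2, 0.0668, 0.0836 and 0.0843 without male controls 2, 3 and 4, 0.0978 without the kidney and liver libraries, and 0.109 with the male groups alone. The coding sequences of Hsd3b6 and Hsd3b1 were 90.0% identical, with no identical stretch of 150 bases.

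The second role is that of the angiotensin II receptors. Mice carry a pair of type 1 receptor genes where most other mammals have a single one. The 2 coding sequences, each of 1080 bases, were 90.8% identical, with a longest identical run of 66 bases. Agtr1b passed the test in both sexes and Agtr1a in neither. Agtr1b was at 13.7, 13.3, 12.2 and 12.4 CPM in female controls and at 2.51, 2.06, 2.18 and 2.17 in female GOF. In males it was at 22.4, 19.7, 17.6 and 14.7 CPM in controls and at 3.53, 3.60, 4.83 and 4.53 in GOF. Every GOF library was below every control of either sex. Agtr1b fell by 2.53 ± 0.154 on the log2 scale in females at an adjusted p of 1.61e-07, and by 2.17 ± 0.151 in males at an adjusted p of 2.64e-07, from edgeR's quasi-likelihood test. With limma on log2(FPKM + 1) the female value was -1.80, and the call held.

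Agtr1a was at 178, 163, 168 and 171 CPM in female controls and 158, 160, 166 and 143 in female GOF. It was at 207, 243, 224 and 206 CPM in male controls and 198, 237, 199 and 167 in male GOF. The groups overlapped in both sexes. The log2 fold changes were -0.12 ± 0.0911 and -0.14 ± 0.0910, with adjusted p of 0.332 and 0.255 from edgeR's quasi-likelihood test. In males the difference was called without male GOF 2, at -0.24 with an adjusted p of 0.0356, and with sample quality weights, at an adjusted p of 0.0459. The FPKM ratio of Agtr1a to Agtr1b was 33.4 ± 1.87 in female controls and 179 ± 18.7 in female GOF, and 30.7 ± 5.14 in male controls and 127 ± 33.9 in male GOF (SD, n = 4). The deposited FPKM of Agtr1a rests on a length of 745 bases, shorter than its coding sequence, so the size of this ratio is high by that choice, while its change between groups does not depend on it.

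Promoters in the RefSeq table (GRCm38.p6) were held for 5 of the 10 members, with 7 start sites: Agtr1b, Dab2, Hsd3b6, Kcnj5 and Vsnl1. The 250 bases before each start were searched on both strands for a steroidogenic factor 1 site, spelled AAGGTCA, for the core of the cyclic AMP response element, spelled TGACGT, for a site of the WNT transcription factors, spelled CTTTGAT, and for the box bound by the general transcription machinery, spelled TATAAA, none of which holds another. Of 32851 promoters in that table, 4.08%, 6.47%, 3.21% and 12.4% held them. There were 2 matches, in Agtr1b and at 1 of the 2 starts of Vsnl1, both called lower in both sexes, so these windows are shown 5′ to 3′ on the gene's strand with the match in capitals. In Agtr1b (chr3:20367178-20367427, minus strand) it is TATAAA, 31 bases before the start, and in Vsnl1 (chr12:11435652-11435901, minus strand) it is CTTTGAT, 62 bases before it.
Agtr1b: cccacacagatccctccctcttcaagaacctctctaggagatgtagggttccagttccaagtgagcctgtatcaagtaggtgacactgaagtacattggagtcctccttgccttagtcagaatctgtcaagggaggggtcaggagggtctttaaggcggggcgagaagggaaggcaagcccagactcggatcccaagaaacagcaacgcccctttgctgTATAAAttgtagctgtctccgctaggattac
Vsnl1: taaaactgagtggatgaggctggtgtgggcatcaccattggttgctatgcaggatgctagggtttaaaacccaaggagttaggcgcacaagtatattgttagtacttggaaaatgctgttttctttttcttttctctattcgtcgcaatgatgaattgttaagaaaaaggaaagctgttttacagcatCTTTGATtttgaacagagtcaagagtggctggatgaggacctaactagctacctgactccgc
A match is a description of these letters, and no match says only that they are not in the window.

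The third role is that of the channels that set the membrane potential. Kcnk3 and Kcnk9 encode TASK-1 and TASK-3, background potassium channels that keep glomerulosa cells hyperpolarised, and their coding sequences were 66.6% identical. The 2 genes differed in their values under GOF. Kcnk9 was at 245, 200, 182 and 229 CPM in female controls and at 34.4, 42.5, 25.4 and 32.8 in female GOF. It was at 412, 282, 366 and 433 CPM in male controls and at 89.1, 51.2, 155 and 86.1 in male GOF. Every GOF library lay below every control of its sex. Kcnk9 fell by 2.66 ± 0.272 on the log2 scale in females at an adjusted p of 6.81e-06, and by 1.97 ± 0.264 in males at an adjusted p of 4.86e-05, from edgeR's quasi-likelihood test.

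Kcnk3 was at 1718, 1484, 1439 and 1464 CPM in female controls and at 2849, 1887, 1714 and 1865 in female GOF. It was at 2254, 1787, 1676 and 1544 CPM in male controls and at 1243, 2369, 1241 and 957 in male GOF. The groups overlapped in both sexes: in females by female control 1, and in males because male GOF 2 was above every male control while the other 3 GOF libraries were below all of them. The log2 fold change was 0.45 ± 0.236 in females and -0.32 ± 0.236 in males, with adjusted p of 0.149 and 0.305 from edgeR's quasi-likelihood test, and the difference of these effects was -0.77 ± 0.334 with an adjusted p of 0.211. Male GOF 2 decided that call. Without it Kcnk3 was -0.68 in males at an adjusted p of 0.0116, and the difference between the sexes was -1.09, with an adjusted p of 0.0225. With sample quality weights the male value was -0.54, with an adjusted p of 0.0480. The FPKM ratio of Kcnk3 to Kcnk9 was 40.9 ± 3.61 in female controls and 358 ± 92.6 in female GOF, and 28.4 ± 6.75 in male controls and 113 ± 101 in male GOF, where male GOF 2 gave 264.

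Kcnj5 encodes GIRK4, a potassium channel subunit whose human mutations cause aldosterone-producing adenomas. It was the least abundant member, with 7 to 66 counts per library. It was at 1.10, 0.484, 0.646 and 0.734 CPM in female controls, 0.205, 0.389, 0.926 and 0.543 in female GOF, 0.308, 0.380, 0.711 and 0.816 in male controls, and 0.981, 0.314, 1.65 and 1.03 in male GOF. The groups overlapped in both sexes, and no difference was called at these low counts: the log2 fold changes were -0.53 ± 0.511 and 0.84 ± 0.506, with adjusted p of 0.431 and 0.207 from edgeR's quasi-likelihood test.

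Cacna1h encodes the T-type calcium channel Cav3.2, which lets calcium into glomerulosa cells at small depolarisations. It was called between the sexes and not with GOF. Cacna1h was at 192, 137, 158 and 211 CPM in female controls and at 192, 154, 163 and 205 in female GOF. It was at 334, 300, 352 and 402 CPM in male controls and at 340, 362, 321 and 253 in male GOF. All 8 male libraries were above all 8 female libraries, and control and GOF overlapped within either sex. The GOF differences were 0.03 ± 0.146 and -0.12 ± 0.146 on the log2 scale, with adjusted p of 0.878 and 0.552 from edgeR's quasi-likelihood test, and the sign of the female value changed in 10 of 28 alternatives.

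The last group is a pair of genes used as markers of the zone. Vsnl1 encodes visinin-like 1, a neuronal calcium sensor protein. It was at 50.6, 58.3, 58.6 and 57.9 CPM in female controls and at 9.91, 8.20, 8.33 and 8.69 in female GOF. It was at 90.0, 54.1, 79.8 and 61.0 CPM in male controls and at 14.8, 9.12, 16.6 and 8.16 in male GOF. The lowest control of either sex was above every GOF library. Vsnl1 fell by 2.68 ± 0.216 on the log2 scale in females at an adjusted p of 1.19e-06, and by 2.55 ± 0.213 in males at an adjusted p of 1.08e-06, from edgeR's quasi-likelihood test.

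Dab2 encodes disabled-2, an endocytic adaptor protein and a marker of the zone. It was at 484, 373, 446 and 444 CPM in female controls and at 447, 285, 310 and 455 in female GOF. It was at 522, 470, 522 and 448 CPM in male controls and at 210, 259, 214 and 180 in male GOF. The female groups overlapped, and all 4 male GOF libraries were below the other 12 libraries. Dab2 fell by 1.18 ± 0.153 on the log2 scale in males at an adjusted p of 2.98e-05, and differed by -0.22 ± 0.151 in females at an adjusted p of 0.256, from edgeR's quasi-likelihood test. With a covariate for the range of the animal number in the sample title (4 ranges, A to D) the female value was -0.39 and was called, with an adjusted p of 0.0206.

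Dab2 was the only member called in the interaction of sex and GOF, where 1 of 10 members and 4.21% of all tested genes passed. The male effect minus the female effect was -0.96 ± 0.214 on the log2 scale, with an adjusted p of 0.0224 from edgeR's quasi-likelihood test. The call was lost in 6 of 27 alternatives, with the sign kept: the adjusted p was 0.0613 without female GOF 4, 0.0503, 0.0556 and 0.0630 without male GOF 1, 3 and 4, 0.0818 without the kidney and liver libraries, and 0.0708 with limma on log2(FPKM + 1) and no filter. In GOF animals Dab2 was lower in males by 0.79 ± 0.152 on the log2 scale, with an adjusted p of 0.00125, and this held in all 28 alternatives. Between control males and females it differed by 0.17 ± 0.151, with an adjusted p of 0.449.

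**Figure D2:**
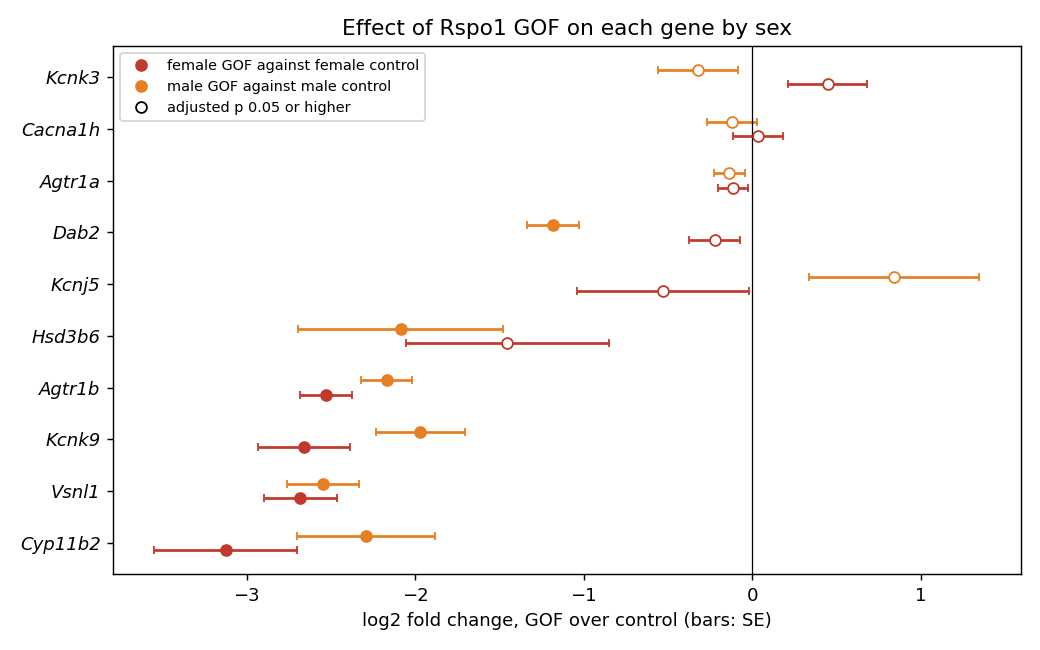
Log2 fold change of GOF over control (horizontal axis) for each of the 10 genes in females and in males, with bars of 1 SE from the edgeR model and open points at an adjusted p of 0.05 or higher. Vsnl1, Agtr1b, Kcnk9 and Cyp11b2 lie beyond -1.9 in both sexes, Dab2 is at -1.18 in males and -0.22 in females, and Agtr1a and Cacna1h lie near 0.

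The sexes were then compared within each genotype. In controls, 4 members were higher in males, Agtr1a, Agtr1b, Kcnk9 and Cacna1h, and none was lower, where 13.5% of all tested genes were called higher. Those 4 members were also the ones whose groups did not overlap, against 25.3% of all tested genes. Cacna1h was higher by 0.99 ± 0.148 on the log2 scale, with an adjusted p of 0.000274 from edgeR's quasi-likelihood test, and was called in all 28 alternatives. Agtr1a was higher by 0.37 ± 0.0912, with an adjusted p of 0.00921, Agtr1b by 0.52 ± 0.144, with an adjusted p of 0.0174, and Kcnk9 by 0.80 ± 0.257, with an adjusted p of 0.0355. These 3 calls were less stable: without the kidney and liver libraries, which leave 2 female controls, only Cacna1h was called, and the adjusted p was 0.111 for Agtr1a, 0.174 for Agtr1b and 0.136 for Kcnk9. The call for Agtr1b was lost in 4 of 28 alternatives, the others being without female control 3, at 0.0558, with no filter, at 0.0675, and with a covariate for the animal numbers' range, at 0.287. That for Kcnk9 was lost in 11 of 28 alternatives, among them without female control 2, 3 or 4 and without male control 1, 3 or 4, at 0.0612 to 0.102, and with that covariate at 0.322. Ranges B and C of the animal numbers hold only females and range D only males, so the covariate is partly confounded with sex. With it, 2 of 10 members and 7.20% of all tested genes were called between control sexes. Cyp11b2 itself was at 231 ± 60.8 CPM in control females and 250.4 ± 116 in control males, a log2 difference of 0.12 ± 0.389 with an adjusted p of 0.858. Hsd3b6 was at 79.1 ± 27.3 and 186 ± 67.0 CPM, a log2 difference of 1.23 ± 0.593 with an adjusted p of 0.144, which passed with only the control groups fitted, at 0.0328, and with sample quality weights, at 0.0417.

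In GOF animals the same 4 members were higher in males, with Dab2 lower, so 5 of 10 members were called, against 29.6% of all tested genes. The 5 called members were also those whose groups did not overlap, against 29.1%. Kcnk9 was higher in males by 1.49 ± 0.262 on the log2 scale, Agtr1b by 0.88 ± 0.149, Cacna1h by 0.84 ± 0.147 and Agtr1a by 0.35 ± 0.0912, with adjusted p of 0.000732, 0.000501, 0.000684 and 0.00930 from edgeR's quasi-likelihood test. Cyp11b2 was at 26.5 ± 10.2 CPM in female GOF and 51.2 ± 21.0 in male GOF, a log2 difference of 0.95 ± 0.397 with an adjusted p of 0.0866. With the covariate for the animal numbers' range, 2 of the 5 calls were left, Cacna1h and Dab2, and 7.34% of all tested genes were called; the adjusted p was 0.0676 for Agtr1a, 0.0794 for Agtr1b and 0.107 for Kcnk9. Cyp11b2 was called in 4 of 28 alternatives: with DESeq2, at 0.0409, with sample quality weights, at 0.0448, without female GOF 1, at 0.0448, and without male GOF 2, at 0.0209. Vsnl1 was called without male GOF 2, at 0.0488, or without male GOF 4, at 0.0302, and Kcnk3 without male GOF 2, at 0.00349, or with sample quality weights, at 0.00950. The comparisons between sexes and those between genotypes share libraries, so their values are not independent.

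**Figure D3:**
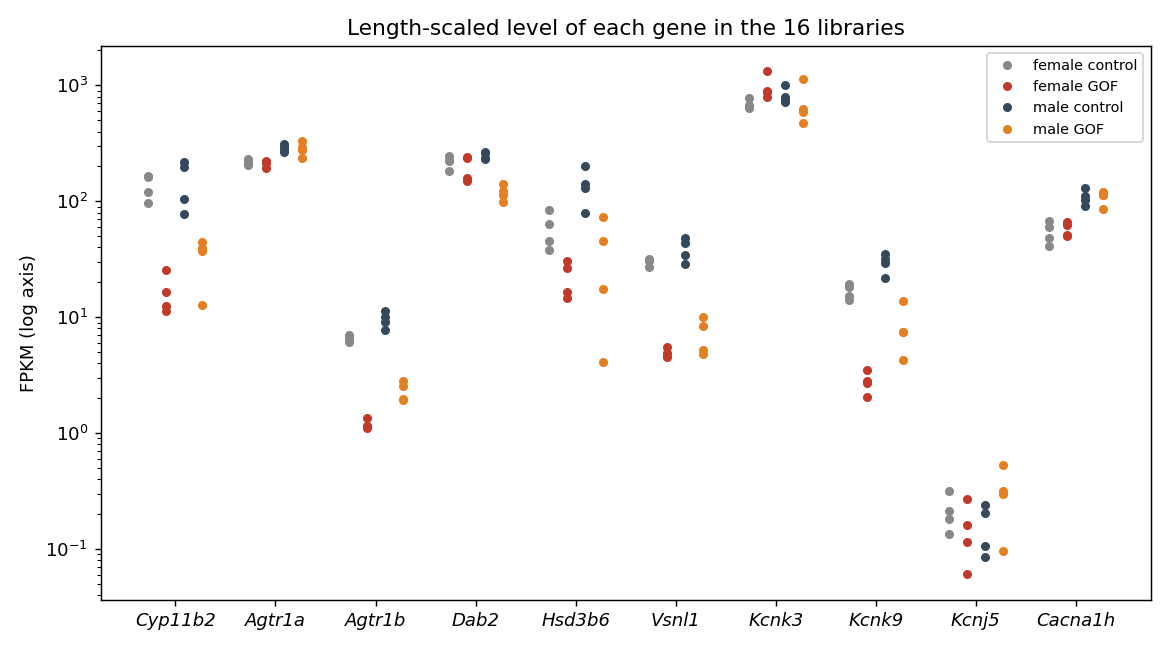
Level per length of the 10 genes in deposited FPKM (log axis), 1 point per library, in the 4 groups. Kcnk3 is the highest and Kcnj5 the lowest in each group, and the mean of Cyp11b2 stands above that of Cacna1h in controls and below it in GOF.

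Levels of different genes were compared per length, in FPKM. Kcnk3 was the most abundant member in each group, at 682 ± 63.6 FPKM in female controls, 969 ± 243 in female GOF, 817 ± 124 in male controls and 708 ± 295 in male GOF (SD, n = 4). Agtr1a and Dab2 followed, at 220.1 and 219.6 FPKM in female controls, where their libraries overlapped. In female controls Cyp11b2 came next at 137 FPKM, followed by Hsd3b6 at 58.3 and Cacna1h at 54.1, which overlapped, then Vsnl1 at 30.2, Kcnk9 at 16.8, Agtr1b at 6.59 and Kcnj5 at 0.211. In male controls the order was the same, with Cyp11b2 at 150 FPKM, Hsd3b6 at 138 and Cacna1h at 109, where neighbours overlapped, and Vsnl1 at 38.5 overlapping Kcnk9 at 29.6.

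In GOF groups the mean of Cyp11b2 stood below those of Cacna1h and Hsd3b6, while its order with Hsd3b6 varied between libraries. In female GOF Cacna1h was at 57.6 FPKM, Hsd3b6 at 22.1 and Cyp11b2 at 16.4, and the last pair overlapped. In male GOF Cacna1h was at 108 FPKM, Hsd3b6 at 35.0, Cyp11b2 at 33.4, Kcnk9 at 8.24 and Vsnl1 at 7.15, where neighbours from Hsd3b6 to Vsnl1 overlapped. The lengths behind these values, worked out from the deposited counts and FPKM, ran from 745 bases for Agtr1a to 12300 for Kcnk9. How the authors set them is not given in the sources used here, and the order of Agtr1a in particular depends on that choice.

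Other genes of aldosterone control were taken from lists of related genes. In the list of 38 angiotensin and calcium signalling genes, 7 were called higher and 15 lower in female GOF, and 2 higher and 16 lower in male GOF. Of all tested genes, 39.6% were called in females, 19.0% as higher, and 36.9% in males, 15.2% as higher. Without the kidney and liver libraries the list's counts were 5 higher and 12 lower in females, and 0 higher and 15 lower in males, where 24.1% and 25.7% of all tested genes were called. With all 16 libraries the list's median log2 fold change was -0.10 in females and -0.27 in males, against 0.05 and 0.01 over all tested genes. Agt, which encodes angiotensinogen, was at 21.6, 32.0, 17.7 and 11.2 CPM in female controls and at 2.69, 3.11, 1.85 and 2.09 in female GOF. In males Agt was at 27.0, 70.8, 30.6 and 11.04 CPM in controls and 3.63, 2.23, 4.01 and 3.59 in GOF, with the highest value in male control 2, the library with the highest level of liver transcripts. The groups did not overlap in either sex. Agt fell by 3.08 ± 0.473 on the log2 scale in females at an adjusted p of 0.000176, and by 3.37 ± 0.476 in males at an adjusted p of 7.55e-05, from edgeR's quasi-likelihood test. The male value was -2.77 without male control 2, and limma on log2(FPKM + 1) gave -2.25 in females and -2.47 in males.

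Agtr2, which encodes the type 2 angiotensin receptor, fell by 2.55 ± 0.307 on the log2 scale in females and by 3.21 ± 0.314 in males, with adjusted p of 2.55e-05 and 3.44e-06 from edgeR's quasi-likelihood test. The calcium/calmodulin-dependent kinase genes Camk2b and Camk4 fell as well. The log2 fold change of Camk2b was -3.45 ± 0.644 in females and -4.48 ± 0.673 in males, and that of Camk4 was -3.42 ± 0.596 in females and -2.44 ± 0.555 in males. Their adjusted p were 0.000806 and 0.000136 for Camk2b and 0.000425 and 0.00319 for Camk4, from edgeR's quasi-likelihood test. Without female GOF 2, the highest GOF library for Camk2b at 3.96 CPM, its female value was -4.42. With limma on log2(FPKM + 1), which understates the change of low genes, the values were -2.28 and -2.96 for Camk2b and -1.20 and -1.16 for Camk4 in females and males. Neural cells express Camk2b and Camk4 too, and markers of the adrenal medulla moved with them, as given below.

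Of 14 other ion channel and pump genes, 2 were called higher and 8 lower in females, and 1 higher and 8 lower in males, beside the 39.6% and 36.9% of all tested genes called. Kcnk2, which encodes the background potassium channel TREK-1, was at 71.1, 127, 74.4 and 47.5 CPM in female controls and at 3.36, 6.23, 2.12 and 3.89 in female GOF. In males Kcnk2 was at 49.7, 81.4, 75.3 and 55.7 CPM in controls and at 16.4, 9.57, 9.77 and 20.9 in GOF. All GOF libraries were below all controls of their sex, and male GOF was above female GOF in every library. Kcnk2 fell by 4.35 ± 0.397 on the log2 scale in females at an adjusted p of 3.14e-06, and by 2.21 ± 0.357 in males at an adjusted p of 0.000247, from edgeR's quasi-likelihood test. The difference of these effects was 2.13 ± 0.498, with an adjusted p of 0.0288. That call was lost in 11 of 27 alternatives, 7 of them with 1 library left out (female controls 2 and 3, female GOF 3 and 4, male control 4, male GOF 1 and 4), at an adjusted p of 0.0533 to 0.0654. Without the kidney and liver libraries the difference was 2.38 with an adjusted p of 0.106.

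Cacna1d, which encodes the L-type calcium channel Cav1.3, fell by 2.33 ± 0.206 on the log2 scale in females and by 1.96 ± 0.201 in males, with adjusted p of 2.10e-06 and 4.26e-06 from edgeR's quasi-likelihood test. With limma on log2(FPKM + 1) the female value was -1.55, and it was called. The T-type channel gene Cacna1h, by contrast, was not called in either sex, as given above. Atp1b1, which encodes a beta subunit of the sodium-potassium pump, fell by 3.66 ± 0.507 in females and by 2.21 ± 0.473 in males, with adjusted p of 8.25e-05 and 0.00234. Its highest controls, at 235 and 229 CPM, were female control 1 and male control 2, and the female value was -3.07 without female control 1.

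Of 10 general steroid synthesis genes, 1 was called higher and 1 lower in females, and 1 higher and 2 lower in males, beside the 39.6% and 36.9% of all tested genes called. The male count of 3 ran from 1, without male control 2, to 4, without female control 2, with 1 library left out, and both counts were 1 without the kidney and liver libraries, where 24.1% and 25.7% of all tested genes were called. Hsd3b1 was the gene called higher in both sexes. Star, whose protein brings cholesterol into mitochondria, fell by 0.78 ± 0.210 on the log2 scale in females at an adjusted p of 0.00877 from edgeR's quasi-likelihood test. In males the log2 value of Star was -0.57 ± 0.209, with an adjusted p of 0.0437, and this call was lost in 18 of 28 alternatives, with a value of -0.35 without male control 1 and an adjusted p of 0.0720 without the kidney and liver libraries. In females it was lost without the kidney and liver libraries, at an adjusted p of 0.0664.

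Of 10 genes of glomerulosa patterning, 3 were called higher and 4 lower in females, and 1 higher and 6 lower in males, beside the 39.6% and 36.9% of all tested genes called. Shh, the ligand that glomerulosa cells send to the capsule, was at 33.7, 21.2, 20.2 and 26.0 CPM in female controls and at 6.84, 9.39, 8.21 and 5.09 in female GOF. In males Shh was at 64.3, 56.9, 68.0 and 90.2 CPM in controls and at 41.9, 19.3, 30.5 and 21.8 in GOF. The groups did not overlap in either sex. Shh fell by 1.77 ± 0.260 on the log2 scale in females and by 1.30 ± 0.252 in males, with adjusted p of 0.000112 and 0.00103 from edgeR's quasi-likelihood test. Smoc2, a matricellular protein gene, fell by 1.59 ± 0.180 and 1.39 ± 0.179. Lef1, a transcription factor of WNT signalling, fell by 0.95 ± 0.304 in females at an adjusted p of 0.0219, and by 1.09 ± 0.304 in males at an adjusted p of 0.0116. The female call for Lef1 was lost without female GOF 1, at 0.0638, without female GOF 4, at 0.0573, and without the kidney and liver libraries, at 0.0799. Nr5a1, which encodes steroidogenic factor 1, went the other way. It was at 1037 ± 358 CPM in female controls and 1825 ± 371 in female GOF, and at 483 ± 59.1 in male controls and 989.9 ± 238 in male GOF (SD, n = 4). It rose by 0.82 ± 0.223 on the log2 scale in females and by 1.04 ± 0.224 in males, with adjusted p of 0.00955 and 0.00224 from edgeR's quasi-likelihood test. The female call was lost without the kidney and liver libraries, at 0.60 with an adjusted p of 0.138.

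Wnt4, a WNT ligand of the outer cortex, was the list's single call in the interaction. It was at 349, 307, 387 and 354 CPM in female controls and at 467, 588, 767 and 429 in female GOF. In males it was at 401, 321, 274 and 378 CPM in controls and at 185, 261, 166 and 178 in GOF. Every female GOF library was above every female control, and every male GOF library below every male control. Wnt4 rose by 0.69 ± 0.184 on the log2 scale in females and fell by 0.80 ± 0.184 in males, with adjusted p of 0.00825 and 0.00353 from edgeR's quasi-likelihood test. The difference of these effects, -1.49 ± 0.260, had an adjusted p of 0.00593. Dab2 had the same sign in that term.

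**Figure D4:**
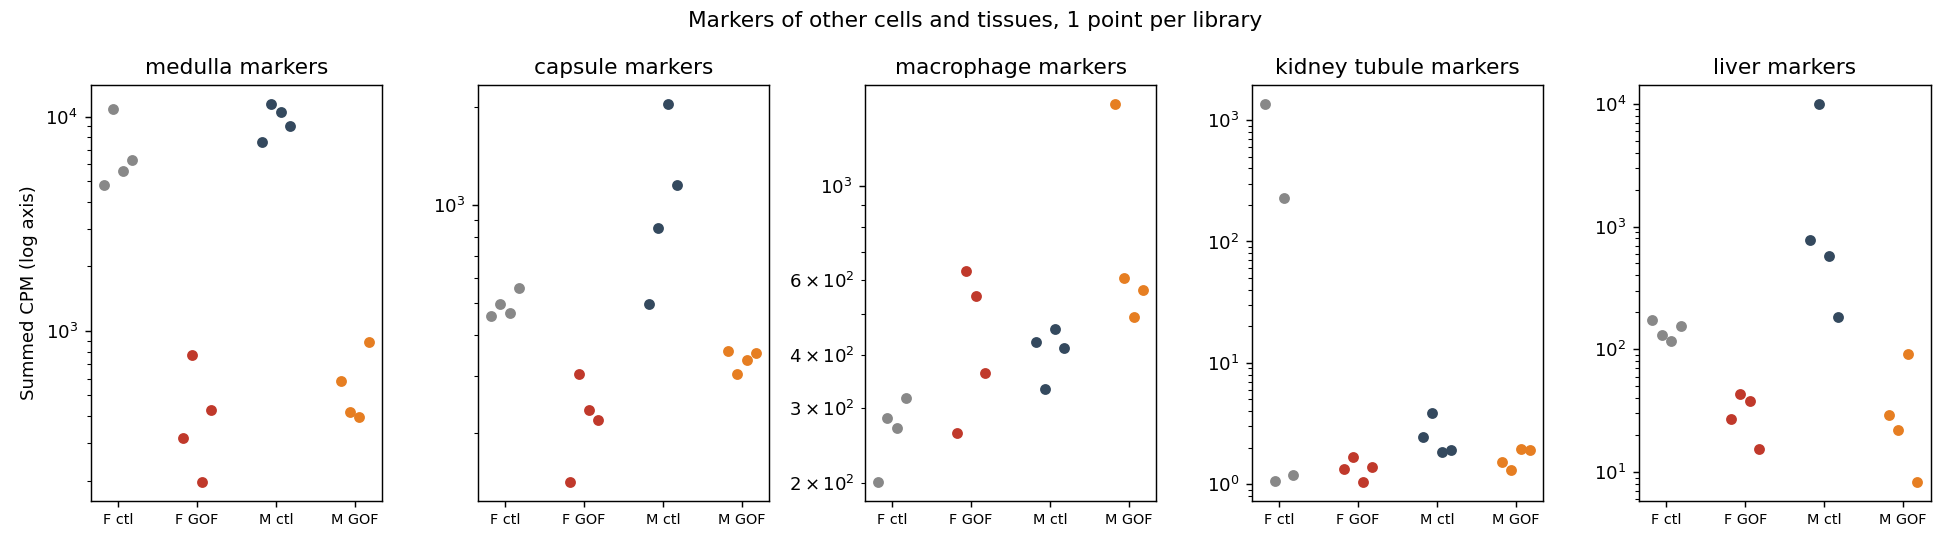
Summed level in CPM (log axes) of marker genes of the medulla, capsule, macrophages, kidney tubule and liver, 1 point per library, in the 4 groups. Medulla and capsule markers are lower in every GOF library than in any control of its sex, and kidney and liver transcripts stand out in single control libraries.

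Markers of other cells moved with GOF beside the members. Of all tested genes, 20.6% were called lower in females and 21.8% in males, and 4.21% were called in the interaction. The medulla, the neuroendocrine core of the gland, was followed by 8 genes, and 8 of 8 were called lower in both sexes; their summed level was 4775 to 10855 CPM in female controls and 198 to 769 in female GOF, and 7606 to 11465 in male controls and 396 to 883 in male GOF. The capsule, the connective tissue layer next to the glomerulosa, was followed by 8 genes, of which 7 were called lower in females and 8 in males. Its summed level was 458 to 557 CPM in female controls and 142 to 303 in female GOF, and 497 to 2045 in male controls and 305 to 357 in male GOF. Macrophage markers were called higher for 1 of 7 genes in females and 4 of 7 in males, with summed levels of 201 to 316 and 262 to 631 CPM in female controls and GOF and of 332 to 460 and 492 to 1559 in males, beside the 19.0% and 15.2% of all tested genes called higher. Adipocyte markers were called lower for 6 of 7 genes in females and 7 of 7 in males, and 3 of 7 were called in the interaction. Their summed level was 1848 to 2329 CPM in female controls and 531 to 971 in female GOF, and 2221 to 4509 in male controls and 407 to 501 in male GOF. Markers of the X-zone, the transient inner layer of the mouse cortex, were called lower for 3 of 3 genes in females, with 5122 to 7545 CPM in controls and 50.9 to 109 in GOF, and for 2 of 3 in males, with 31.9 to 41.1 and 25.1 to 33.5. The male sums overlapped and were mostly Thrb, with means of 35.4 CPM in controls and 30.4 in GOF. In males Akr1c18 averaged 0.686 and 0.0539 CPM, and Pik3c2g 0.487 and 0.0195. The female GOF sum was also mostly Thrb, at 78.6 CPM. In the interaction 2 of 3 X-zone genes were called. Smooth muscle markers were called lower for 1 of 6 genes in females and 4 of 6 in males. Markers of the zona fasciculata, the next inner layer, were called lower for 2 of 5 genes in females and 0 of 5 in males. In edgeR's quasi-likelihood test, 4 of 5 and 1 of 5 had an unadjusted p under 0.05 in either direction. These markers went both ways in females: Mc2r averaged 211 CPM in controls and 316 in GOF, and Cyp11b1 4592 and 5922. Akr1b7, Abcb1b and Scarb1 were lower on average in female GOF. In males only Cyp11b1 had a higher mean in GOF. The part of these cells in the differences of the members, and of the other genes named from the related lists, was not tested.

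Within groups, after each group's mean was subtracted, genes among the most like Cyp11b2 across the 16 libraries were Lrrfip2, with a Pearson r of 0.89 on log2 CPM, Rab28 at 0.80, Commd6 at 0.79 and Cd2ap at 0.78, of 14045 genes searched. Those most like Dab2 were Nectin1 and Tmem81 at 0.87, and Epn3, Ptgir and Unk at 0.86. Among pairs of members, Hsd3b6 and Vsnl1 had the highest r, at 0.72, followed by Cyp11b2 and Vsnl1 at 0.70 and Dab2 and Cacna1h at 0.68, and Kcnk3 and Kcnj5 the lowest, at -0.75. These are descriptions over libraries that share a depth and a scaling factor.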

How the data were processed

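The members and gene lists were chosen with earlier results of these data known. Per the labels' protocols, total RNA (integrity number 7.0 or above) went into NEBNext Ultra libraries, and both ends of the fragments were read over 150 bp. TopHat2 2.0.12, Bowtie2 2.2.3, HTSeq 0.6.1 and DESeq 1.18.0 are named in the submitters' processing notes; their settings, the genome build and strandness are not given in the sources used here. The deposited counts are whole reads per Ensembl gene without normalization. The deposited FPKM values are scaled by the authors to a gene length and to the library total. Of 54838 identifiers, 54809 were in GENCODE M21 (GRCm38), which gave symbols and coordinates.

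Groups came from the labels, with replicates numbered in accession order, each from another mouse. Counts were filtered with filterByExpr (18214 genes kept), scaled by TMM and tested in edgeR 4.0.16 (R 4.3.3; robust quasi-likelihood fit), with 1 model of 16 libraries, 5 contrasts and Benjamini-Hochberg adjustment over all tested genes at 0.05. CPM used totals times TMM factors. Levels per length used the deposited FPKM. The edgeR step was tested on simulated data. All 10 members were named; of each related list, up to the 4 called genes with the largest change per contrast could be named, with Rspo1, Cyp11b1 and Hsd3b1, and any interaction call. Agtr2 in females, Nr5a1 in males and Wnt4 within each sex were named after their values were seen. Some genes that the rules would name are not reported here.

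Alternatives were DESeq2 1.42.0, RLE or upper-quartile factors, a minimum of 10 counts in each library, all genes unfiltered, and a fit of only the groups compared. Others were limma 3.58.1 on log2(FPKM + 1) or log2(FPKM + 0.1), with a mean FPKM from 0.5 up or unfiltered, sample quality weights in voom, a covariate for the animal numbers' range, leaving out female controls 1 and 3 and male control 2, leaving out each library, and an absolute log2 fold change of at least 1. Alternatives for the related lists were added after seeing the data.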

Additional observations from a re-analysis of the deposited data

Results flagged for a closer look

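In 3 of 40 groups of 4 libraries, the level of a member in 1 library stood apart from the other 3 by more than Dixon's 95% critical value allows; chance gives this in about 1 in 20 groups. Vsnl1 was at 50.6 CPM in female control 1, against 57.9 to 58.6 in the other female controls. Kcnk3 was at 1718 CPM in the same library, against 1439 to 1484, and that library also held the most kidney tubule transcripts, at 1361 CPM. Kcnk3 was at 2849 CPM in female GOF 1, against 1714 to 1887 in the other female GOF libraries. Without female control 1 neither gene changed its call in females.

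The effect of GOF on Dab2 differed between the sexes, by -0.96 on the log2 scale in the interaction term of edgeR's quasi-likelihood test, with an adjusted p of 0.0224 and a range of 0.00126 to 0.0818 over 27 alternatives.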

How the results depend on the processing

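The number of members called was 4 to 5 in females and 6 to 8 in males with 1 library left out, and in males 5 with no filter and 5 with only the groups compared; every alternative kept Cyp11b2, Agtr1b, Vsnl1 and Kcnk9 lower in both sexes. In controls 4 members differed by sex; the number was 2 with no filter, 2 with the animal number range as a covariate and 1 without the kidney and liver libraries, where 8.92%, 7.20% and 8.70% of all genes tested were called, against 23.4%. It was 0 at an absolute log2 fold change of at least 1, and 2 to 4 with 1 library left out. In GOF animals it was 5, against 2 with the covariate, 1 with the size threshold and 5 to 8 with 1 library left out. In the interaction it was 1, against 0 with limma and no filter, 0 without the kidney and liver libraries, 0 with the size threshold and 0 to 2 with 1 library left out; fitting only the groups compared gives no interaction.

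Signs changed for some differences that were not called. For Cacna1h in females the log2 value was -0.0376 with at least 10 counts in every library, -0.0625 with the covariate and -0.0794 to 0.140 with 1 library left out. Between control males and females, the covariate gave -0.107 for Cyp11b2 and -0.0696 for Dab2, 1 library left out gave -0.111 to 0.326 for Cyp11b2, and Kcnj5 was at 0.00473 without the kidney and liver libraries. Between GOF males and females, Hsd3b6 was at -0.631 with sample quality weights and -0.0794 to 0.987 with 1 library left out. In the interaction, Agtr1a was at 0.0181 with RLE factors, 0.0848 with upper-quartile factors, 0.0144 with DESeq2, 0.0266 with no filter, 0.0577 with at least 10 counts, 0.0292 with limma on log2(FPKM + 1) with or without the filter, 0.0293 with a pseudocount of 0.1, and -0.0891 to 0.0808 with 1 library left out. Vsnl1 was at -0.0262 in it with sample quality weights and -0.0286 to 0.305 with 1 library left out. The cause was not tested.

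No paired analysis was possible because replicate numbers were given in accession order and pair no animals. Kcnj5 had the lowest counts of the members, at 7 to 66 per library, and the part of depth in its result was not tested.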
